A study of Danio rerio with 54 samples.

Results

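The fatty acid elongases and the front-end desaturase of the adult zebrafish retina were followed through light damage and regeneration. Members were chosen by gene name and are 10 of the 15245 genes in the count tables: elovl4b, elovl4a, elovl2, elovl5, elovl6, elovl1b, elovl1a, elovl7a, elovl8b and fads2. All 10 were found in both kinds of table and passed the filter on low values in the 2 fits reported below. The genes were proposed with earlier results of these data known, so the values below describe this set and are not independent support for any pattern. Whole retinas from the left eyes of albino Danio rerio aged 6 to 9 months were profiled by 3′ mRNA sequencing, in 9 groups of 6 retinas, 1 retina per library. Naive fish were kept under normal light and received no treatment. The 0 h fish were dark-adapted for 5 days. Later groups were taken at 24 hpl, 36 hpl and 72 hpl (hours post-light) and at 5 dpl, 10 dpl, 14 dpl and 28 dpl (days post-light). They were dark-adapted for the same 5 days and then exposed to intense halide light for 30 min, followed by halogen light. All groups but the naive one thus went through the dark adaptation. Times count from the onset of light, so retinas at 24 and 36 hpl were taken during the exposure and those at 72 hpl at its end. Fish of the 5 dpl to 28 dpl groups went back to a standard light and dark cycle after the exposure. The 0 h retinas were taken straight from the dark. In differences from 0 h, the end of darkness and the light damage therefore cannot be told apart. Each time was set against 0 h, and 0 h and 28 dpl were also set against naive retinas.

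Elongases of the Elovl family sit in the endoplasmic reticulum membrane and catalyse the condensation step that starts each round of fatty acid lengthening. Other enzymes of the cycle (ketoacyl reductase, dehydratase and enoyl reductase) finish the round, and Fads2 introduces double bonds into polyunsaturated chains. Photoreceptor outer segments are rich in docosahexaenoic acid (DHA) and hold very-long-chain polyunsaturated fatty acids, which are made by Elovl4, and dominant mutations of human ELOVL4 cause a macular dystrophy.

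Levels are given as pseudo-counts, which the authors made from the read counts by adjustment for library size, and differences as log2 fold changes from edgeR on the raw counts. A gene was called at an adjusted p under 0.05 over all genes tested. The reads come from the 3′ ends of transcripts, so levels were not scaled to length. Libraries held 1111503 to 4040445 counted reads, except 5 dpl replicate 2 with 228611 (9.06% of what the other 5 dpl libraries held in the median). At 0 h, replicate 5 held the highest summed rod and cone transcripts of its group. The 48 libraries outside the naive group came from 2 experiments with 3 fish per group each, and libraries of experiment 1 had reads in 13493 to 13887 genes against 12342 to 13207 genes in experiment 2 (5 dpl replicate 2 left out). Summed rod markers were 66147 to 113091 pseudo-counts at 0 h and summed cone markers 87633 to 138284, while the lens list summed to 23.5 to 463 there, with the highest value in replicate 2.

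In the first days after the onset of light, 4 or 5 of the 10 members were called at each time, in both directions. Beside the 31.8% to 47% of all genes called, these counts show nothing particular to the set. Against 0 h, 1 of 10 members was higher and 4 were lower both at 24 hpl and at 36 hpl, followed by 2 higher and 3 lower at 72 hpl and by 2 in each direction at 5 dpl. Of all 13075 genes tested, 36.6% were called at 24 hpl (19.0% higher and 17.7% lower), 47% at 36 hpl (23.6% higher and 23.4% lower), 42.9% at 72 hpl (22.7% higher and 20.2% lower) and 31.8% at 5 dpl (17.5% higher and 14.3% lower). At later times 1 of 10 members was lower at 10 dpl, 1 was higher at 14 dpl and 0 were called at 28 dpl, beside backgrounds of 9.91% (7.06% higher and 2.85% lower), 13.2% (8.50% higher and 4.67% lower) and 8.08% (4.72% higher and 3.36% lower) in that order. For 28 dpl, edgeR, DESeq2 and limma each called 0 members (DESeq2 gave elovl1a no adjusted p), and 1 had an unadjusted p under 0.05 in edgeR. The median log2 fold change of the 10 members was -0.61 at 24 hpl, -0.36 at 36 hpl, -0.28 at 72 hpl and 0.01 at 28 dpl, beside medians over all genes of -0.10, -0.084, -0.045 and -0.001. As the plot of fold changes by time shows, elovl4b had the deepest fall, elovl1b the highest rise, and fads2 was lower at 24 hpl and higher at 72 hpl. Between consecutive times, 2 of 10 members were called between 24 and 36 hpl (1 higher and 1 lower, background 11.4%, 6.20% higher and 5.25% lower), 2 between 36 and 72 hpl (1 higher and 1 lower, background 12.6%, 6.68% higher and 5.92% lower), 2 between 72 hpl and 5 dpl (both higher, background 13.5%, 6.54% higher and 6.96% lower) and 1 between 5 and 10 dpl (higher, background 12.6%, 5.75% higher and 6.81% lower).

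**Figure D1:**
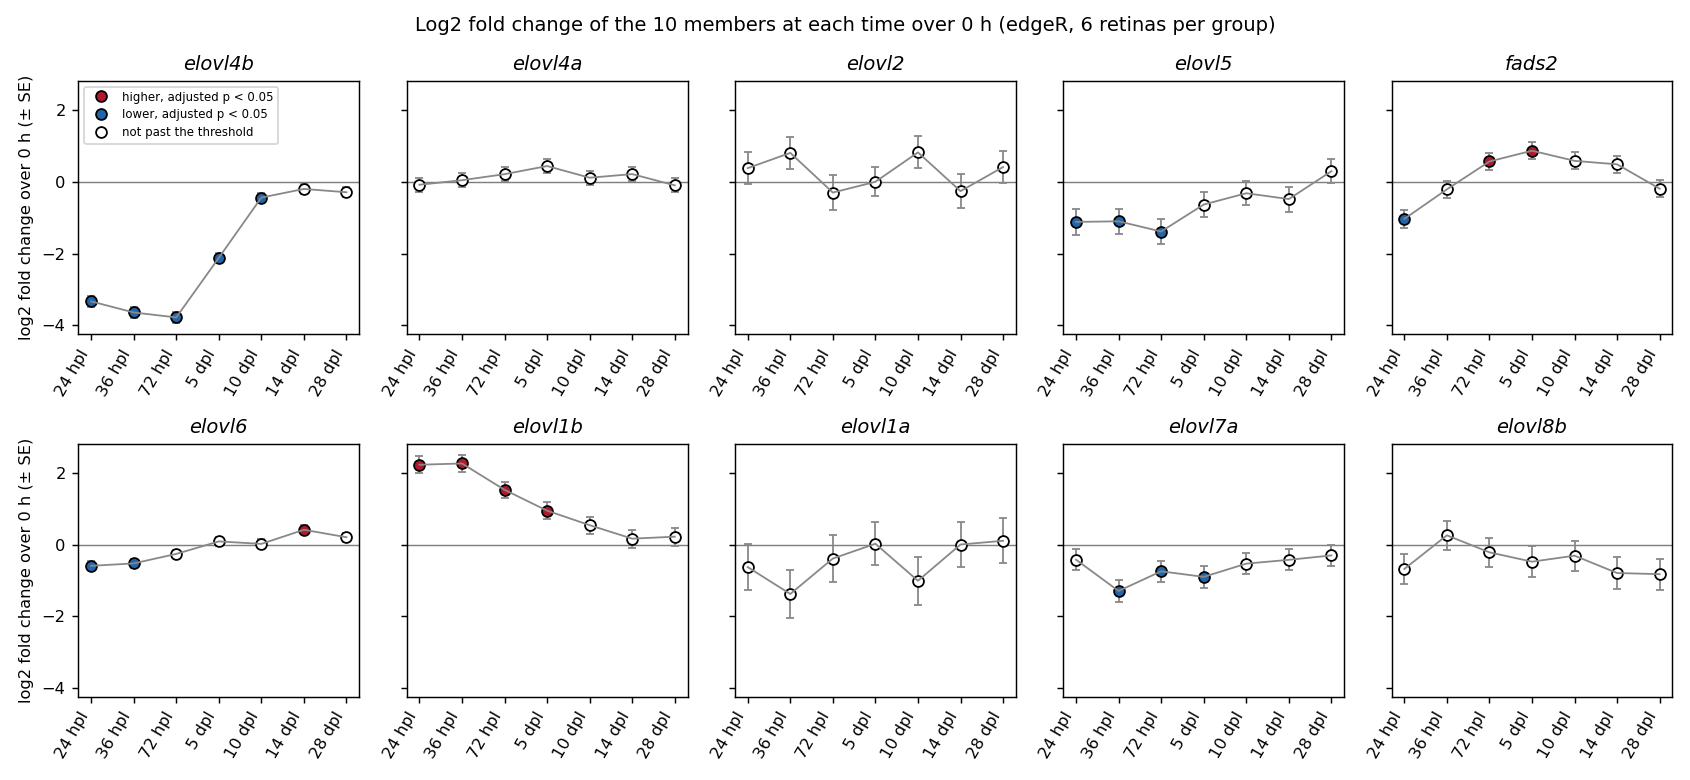
Log2 fold change of each of the 10 members over 0 h (y axis, ± SE, edgeR with 6 retinas per group) at the 7 times after light onset (x axis). Red points were higher and blue points lower at an adjusted p under 0.05, and open points did not pass. elovl4b lay between -3.78 and -3.33 from 24 to 72 hpl, and elovl1b between 1.53 and 2.27.

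elovl4b, the zebrafish Elovl4 copy known from photoreceptors, was the most counted member in all 9 groups by mean pseudo-counts and had the widest swing. The lowest, median and highest retinas held 5589, 6617 and 9246 pseudo-counts in naive fish and 3907, 4971 and 6589 at 0 h. After the onset of light they held 438, 500.3 and 553 at 24 hpl, 286, 399 and 498 at 36 hpl and 305, 359 and 404 at 72 hpl. The 5 dpl retinas held 885, 1159.5 and 1347, and those at 10 dpl held 2919, 3739.9 and 4748. Later retinas lay near these last values, with 3008, 4113 and 5656 at 14 dpl and 3585, 4156 and 4602 at 28 dpl. All retinas from 24 hpl to 5 dpl lay below all 0 h retinas, whereas those from 10 dpl on overlapped with 0 h. The log2 fold change over 0 h was -3.33 ± 0.15 (SE; adjusted p = 9.11e-26) at 24 hpl, -3.64 ± 0.15 (SE; adjusted p = 2.01e-27) at 36 hpl and -3.78 ± 0.15 (SE; adjusted p = 5.81e-28) at 72 hpl. Within the experiments, the 72 hpl value was -3.55 in experiment 1 and -3.95 in experiment 2. At 5 dpl elovl4b was still lower, at -2.12 ± 0.14 (SE; adjusted p = 2.73e-18), yet it had risen by 1.67 ± 0.14 (SE; adjusted p = 8.61e-14) over 72 hpl, with no overlap between those groups. A further rise of 1.68 ± 0.14 (SE; adjusted p = 2.68e-14) separated 10 dpl and 5 dpl, again with no overlap. Against 0 h, the 10 dpl level was -0.44 ± 0.13 (SE; adjusted p = 0.0253), and this call did not hold without 0 h replicate 5 (adjusted p = 0.0579), in experiment 1 alone (log2 -0.24) or without the experiment term. At 14 dpl and 28 dpl the values were -0.19 ± 0.13 (SE; adjusted p = 0.364) and -0.29 ± 0.13 (SE; adjusted p = 0.186). The experiments differed in sign at 14 dpl, where elovl4b was called lower in experiment 2 alone (log2 -0.53, adjusted p = 0.0294) and lay at 0.10 in experiment 1 alone (adjusted p = 0.837).

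Photoreceptor transcripts moved with elovl4b. Of the rod markers tested, 1 of 14 were higher and 13 lower at 72 hpl, with a median log2 fold change of -3.49 and nr2e3, a photoreceptor nuclear receptor, as the one that was higher. Of the cone markers 0 of 19 were higher and 18 lower, with a median of -4.35. Relative to its own 0 h mean, elovl4b stood at 9.92% ± 0.943 at 24 hpl, 7.17% ± 0.712 at 72 hpl and 23.2% ± 3.27 at 5 dpl (mean and SD, n = 6 retinas). The summed rod markers (14 of 18 listed genes) stood at 11% ± 1.74, 9.08% ± 2.01 and 19.3% ± 5.64 at these times, and the summed cone markers (19 of 22) at 7.29% ± 1.61, 5.02% ± 1.07 and 30.2% ± 13.8. At 28 dpl elovl4b reached 82.6% ± 6.61 of its 0 h mean, beside 113% ± 7.03 for the rod sum and 138% ± 8.86 for the cone sum. The choice of base matters here. Naive retinas stood at 139% ± 26.8 of the 0 h mean for elovl4b, 173% ± 10.7 for the rod sum and 170% ± 15.6 for the cone sum. The 0 h base thus lay below naive retinas, by more for the sums than for elovl4b. None of the measured rod or cone markers was at 0 in all 6 retinas of any group. In whole retinas, fewer photoreceptors and less elovl4b RNA per photoreceptor cannot be told apart. Over all 54 libraries and 8233 genes with a mean of at least 20 pseudo-counts, the genes whose log2 pseudo-counts were most like elovl4b were inaa (Pearson r = 0.985), rom1b (r = 0.984) and prph2b (r = 0.982), the last pair being tetraspanins of the outer segment disc rim. These correlations are descriptions over libraries that share groups, experiments and depth.

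**Figure D2:**
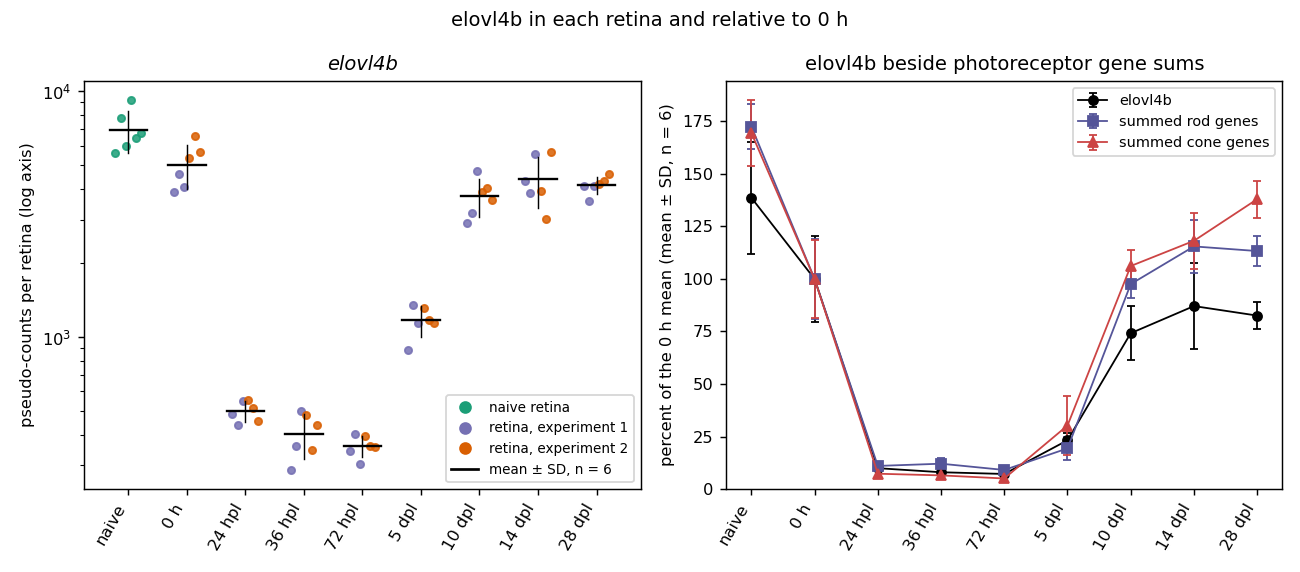
Left, elovl4b pseudo-counts (log axis) in each retina of the 9 groups, coloured by experiment, with the mean and SD as lines; right, group means (± SD, n = 6) of elovl4b and of the summed rod and cone markers as percent of their own 0 h means. elovl4b stood at 7.17% ± 0.712 of its 0 h mean at 72 hpl and at 82.6% ± 6.61 at 28 dpl.

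elovl4a, the other Elovl4 copy, was called in 0 of the 13 comparisons, and its mean was higher in experiment 1 than in experiment 2 in all 8 groups. Its retinas ranged from 32.3 to 77.6 (median 63.9) pseudo-counts at 0 h, and the group medians of the later times lay between 56.4 at 28 dpl and 73.8 at 5 dpl. The largest difference from 0 h was at 5 dpl, 0.45 ± 0.20 (SE; adjusted p = 0.0774), and it was called without the shallow 5 dpl replicate 2 (log2 0.50, adjusted p = 0.0403). Where elovl4b lay at a log2 of -3.78 at 72 hpl, elovl4a lay at 0.22 ± 0.20 (SE). The difference between the copies was not tested. Among the genes most like elovl4a over the 54 libraries were edc3 (r = 0.611) and rbp2a (r = 0.605).

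Of the enzymes of polyunsaturated chain synthesis, elovl5 fell in the first 3 days. It lengthens polyunsaturated chains of moderate length. Its lowest, median and highest retinas held 4.24, 11.4 and 16.9 pseudo-counts at 24 hpl, 1.61, 13.1 and 17.7 at 36 hpl and 3.14, 6.54 and 26.3 at 72 hpl, against 8.62, 23.1 and 36 at 0 h. The ranges overlapped at each of these times. The log2 fold change was -1.12 ± 0.36 (SE; adjusted p = 0.0109) at 24 hpl, -1.10 ± 0.35 (SE; adjusted p = 0.00771) at 36 hpl and -1.38 ± 0.36 (SE; adjusted p = 0.00135) at 72 hpl. elovl5 was counted more in experiment 1 than in experiment 2 in all 8 groups, with means of 28.7 and 16.6 pseudo-counts at 0 h and 14.8 and 3.95 at 72 hpl. Within the experiments, the 72 hpl value was -0.98 in experiment 1 and -1.99 in experiment 2. Without the experiment term none of the 3 calls held (adjusted p = 0.118, 0.115 and 0.0589 in time order), and neither experiment alone gave the calls at 24 hpl and 36 hpl. From 5 dpl on no comparison of elovl5 passed, and at 28 dpl its log2 fold change was 0.30 ± 0.33 (SE; adjusted p = 0.643). The genes most like elovl5 over the 54 libraries were rap1gap (r = 0.773), slc48a1a (r = 0.747) and bmpr1aa (r = 0.742).

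fads2, whose zebrafish product carries out both front-end desaturation steps on polyunsaturated chains, first fell and then rose. The lowest, median and highest retinas held 16.3, 21.6 and 25.8 pseudo-counts at 24 hpl, against 33.1, 37.8 and 63.7 at 0 h, with no overlap between the groups. They held 26.5, 31.3 and 58 at 36 hpl, 33.6, 69.1 and 85.9 at 72 hpl and 37, 76.8 and 110.3 at 5 dpl, where the highest mean of the 9 groups was measured. At 10 dpl and 14 dpl the medians were 66.5 and 66.2, and the log2 fold changes over 0 h, 0.59 and 0.49, did not pass (adjusted p = 0.105 and 0.168). At 28 dpl the values were 18.5, 40.9 and 57.8, which overlapped with 0 h. Against 0 h the log2 fold change was -1.03 ± 0.25 (SE; adjusted p = 0.000831) at 24 hpl, 0.57 ± 0.23 (SE; adjusted p = 0.0418) at 72 hpl and 0.87 ± 0.23 (SE; adjusted p = 0.0029) at 5 dpl, and -0.21 ± 0.24 (SE; adjusted p = 0.498) at 36 hpl in between. The step between 24 hpl and 36 hpl was a rise of 0.83 ± 0.25 (SE; adjusted p = 0.0193) with no overlap, and that between 36 hpl and 72 hpl a rise of 0.78 ± 0.23 (SE; adjusted p = 0.0137). Within the experiments, the 24 hpl value was -0.67 in experiment 1 and -1.31 in experiment 2, and the 5 dpl value was 0.76 in experiment 1 and 0.95 in experiment 2. The first was not called in experiment 1 alone nor the second in experiment 2 alone (adjusted p = 0.0609 and 0.052), and both steps were lost in each experiment alone. The 72 hpl call did not hold with relative log expression factors, without the experiment term, in experiment 2 alone or in limma on pseudo-counts (adjusted p = 0.0524, 0.0584, 0.28 and 0.0646 in that order).

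Summed over its genes, the Müller glia list was high at 72 hpl and 5 dpl, as fads2 was. The sum does not show the course of each gene. The summed pseudo-counts of this list (13 of 14 listed genes) ran over 4230.3 to 7179 at 24 hpl, 21417 to 31631 at 72 hpl and 18611 to 26602 at 5 dpl, against 5864 to 9082 at 0 h. Its median was 12333 at 10 dpl and 9543 at 14 dpl, while the fads2 medians were 66.5 and 66.2. Summed progenitor markers were high too, with medians of 4514 and 2285 at 72 hpl and 5 dpl, against 513 at 0 h. Microglia and macrophage markers had medians of 1145 and 1114, against 459. None of the Müller glia genes was at 0 in all 6 retinas of a group. The part of these lists in the fads2 result was not tested. The genes most like fads2 were adh5 (r = 0.765), fb06f03 (r = 0.742) and hmgb1a (r = 0.729). elovl2, which lengthens the longer polyunsaturated chains on the way to DHA, was counted in few reads: 2 to 13 reads per library at 0 h and 6 to 8 at 72 hpl. No comparison over time called it in the fit of both experiments, with log2 values against 0 h between -0.30 at 72 hpl and 0.83 at 10 dpl. Most like elovl2 were bin2b (r = 0.639), zgc:174315 (r = 0.639) and plxnb2a (r = 0.621). At 72 hpl it lay at -1.21 in experiment 1 alone, which was called there (adjusted p = 0.0481), and at 1.11 in experiment 2 (adjusted p = 0.334), and the difference between experiments did not pass over all genes (adjusted p = 0.211). At 36 hpl it was called higher in experiment 2 alone (log2 2.06, adjusted p = 0.043), and lay at 0.027 in experiment 1. DESeq2 called elovl2 lower at 72 hpl than at 36 hpl (log2 -1.16, adjusted p = 0.0384).

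elovl1b was the member that rose most. Elovl1 enzymes lengthen saturated and monounsaturated chains into the very long range used in sphingolipids. The lowest, median and highest retinas held 100.2, 154 and 266 pseudo-counts at 24 hpl, 107, 169 and 217 at 36 hpl and 62.3, 105 and 110.0 at 72 hpl, against 25.6, 31.3 and 49.3 at 0 h. Every retina of these 3 times lay above every 0 h retina. At 5 dpl the values were 47.5, 62.1 and 95.6, and at 10 dpl, 14 dpl and 28 dpl the medians were 48.4, 38.1 and 42.2. The log2 fold change over 0 h was 2.23 ± 0.23 (SE; adjusted p = 8.26e-12) at 24 hpl, a 4.70-fold difference, and 2.27 ± 0.23 (SE; adjusted p = 3.25e-12) at 36 hpl. It was 1.53 ± 0.23 (SE; adjusted p = 2.08e-07) at 72 hpl and 0.95 ± 0.24 (SE; adjusted p = 0.00154) at 5 dpl, and from 10 dpl on it did not pass (0.55, 0.17 and 0.22 in time order). Between 36 hpl and 72 hpl elovl1b was lower at 72 hpl, at -0.74 ± 0.20 on the log2 scale (SE; adjusted p = 0.0092), a call lost in experiment 1 alone (adjusted p = 0.15). Within the experiments, the 24 hpl value was 1.74 in experiment 1 and 2.83 in experiment 2, and the difference between experiments did not pass over all genes (adjusted p = 0.505). The 5 dpl call was lost in experiment 1 alone (adjusted p = 0.0784).

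The summed microglia and progenitor markers were above 0 h in the same days as elovl1b, with other courses. The summed microglia and macrophage markers (14 of 18) were 689 to 1099 pseudo-counts at 24 hpl and 704 to 1846 at 36 hpl, against 406 to 521 at 0 h, and none of them was at 0 in all 6 retinas of a group. Summed markers of proliferating progenitors (16 of 16) were 1304 to 2203 at 24 hpl and 3629.6 to 5316 at 36 hpl, against 455 to 631 at 0 h, with rrm2 at 0 in all retinas at 0 h and 24 hpl. Between 24 and 36 hpl the median progenitor sum went from 1833 to 4521, while elovl1b changed by a log2 of 0.036. At 72 hpl, where elovl1b was lower than at 36 hpl, that median was 4514. The microglia and macrophage median was 1145 there, beside 1246 at 36 hpl. The part of these lists in the elovl1b result was not tested. The genes most like elovl1b were tuba8l (r = 0.907), llph (r = 0.901) and zgc:92066 (r = 0.886), and its r with elovl4b over the 54 libraries was -0.82. elovl1a, the other Elovl1 copy, was barely counted, with 2 to 13 reads per library at 0 h and 0 to 15 at 24 hpl. No comparison over time called it in the fit of both experiments, and at 24 hpl its log2 fold change was -0.63 ± 0.64 (SE; adjusted p = 0.478). In experiment 2 alone elovl1a was called lower at 24 hpl (log2 -3.73, adjusted p = 0.0285), while it lay at 0.11 in experiment 1 alone (adjusted p = 0.923), and the difference between experiments did not pass over all genes (adjusted p = 0.467). Its closest genes were pcxa (r = 0.614), cpeb1b (r = 0.540) and cd151l (r = 0.522).

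elovl6, which lengthens palmitate to stearate at the end of de novo fatty acid synthesis, was the second most counted member and fell modestly. Its lowest, median and highest retinas held 153, 179 and 222 pseudo-counts at 24 hpl and 136, 197 and 234 at 36 hpl, against 213, 281 and 320.4 at 0 h. The groups overlapped. The log2 fold change was -0.59 ± 0.12 (SE; adjusted p = 0.000109) at 24 hpl and -0.52 ± 0.12 (SE; adjusted p = 0.000391) at 36 hpl, and -0.26 ± 0.12 (SE; adjusted p = 0.0859) at 72 hpl, the last being called with relative log expression factors and in DESeq2 (adjusted p = 0.0476 and 0.0382). Within the experiments, the 24 hpl value was -0.65 in experiment 1 and -0.39 in experiment 2, and the 36 hpl value was -0.60 in experiment 1 and -0.33 in experiment 2. Neither call held in experiment 2 alone (adjusted p = 0.114 and 0.149 in time order). At 14 dpl, where retinas held 310.4, 353 and 502, elovl6 was higher than at 0 h by 0.42 ± 0.12 (SE; adjusted p = 0.0171). That call did not hold without 0 h replicate 5, without the experiment term or in either experiment alone (adjusted p = 0.0545, 0.0786, 0.303 and 0.0863 in that order). The rise between 72 hpl and 5 dpl, 0.35 ± 0.12 (SE; adjusted p = 0.05), sat at the threshold and was lost without the filter on low counts, without the experiment term, in each experiment alone, with the replicate block and without 0 h replicate 5 (adjusted p = 0.052, 0.142, 0.365, 0.254, 0.0588 and 0.0557 in that order). pgam1b (r = 0.917), idh2 (r = 0.895) and unc119b (r = 0.885) were most like elovl6.

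elovl7a, a relative of the Elovl1 enzymes, was lower from 36 hpl to 5 dpl. Its retinas held 5.93, 15.6 and 26.3 pseudo-counts at 36 hpl (lowest, median and highest), against 28.8, 33.9 and 67.4 at 0 h, and these groups did not overlap. They held 9.13, 21 and 36.4 at 72 hpl and 4.23, 20.9 and 30.8 at 5 dpl, which overlapped with 0 h. At 5 dpl, 1 library had no elovl7a read, although its pseudo-count was above 0. The log2 fold change was -1.29 ± 0.30 (SE; adjusted p = 0.00033) at 36 hpl, -0.74 ± 0.30 (SE; adjusted p = 0.037) at 72 hpl and -0.90 ± 0.31 (SE; adjusted p = 0.0194) at 5 dpl, and -0.42 ± 0.29 (SE; adjusted p = 0.278) at 24 hpl. Against 24 hpl, the 36 hpl level was -0.87 ± 0.30 (SE; adjusted p = 0.0475). Within the experiments, the 36 hpl value over 0 h was -1.51 in experiment 1 and -1.02 in experiment 2. The 36 hpl call was lost in experiment 2 alone (adjusted p = 0.0845), and those at 72 hpl and 5 dpl in each experiment alone and without the experiment term. The step against 24 hpl was lost without the filter on low counts, without the experiment term, in each experiment alone, with the replicate block (adjusted p = 0.0534) and in limma on pseudo-counts. elovl7a and elovl6 had lower means in experiment 1 than in experiment 2 in all 8 groups. sh3glb2b (r = 0.800), ints6 (r = 0.783) and tmem231 (r = 0.780) were most like it. elovl8b, a member of an elongase group described in fish, was called at no time after light onset. It had 2 to 13 reads per library at 0 h and log2 values against 0 h between -0.82 at 28 dpl and 0.26 at 36 hpl. ccr9a (r = 0.562), fam83d (r = 0.561) and g2e3 (r = 0.545) were most like elovl8b.

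**Figure D3:**
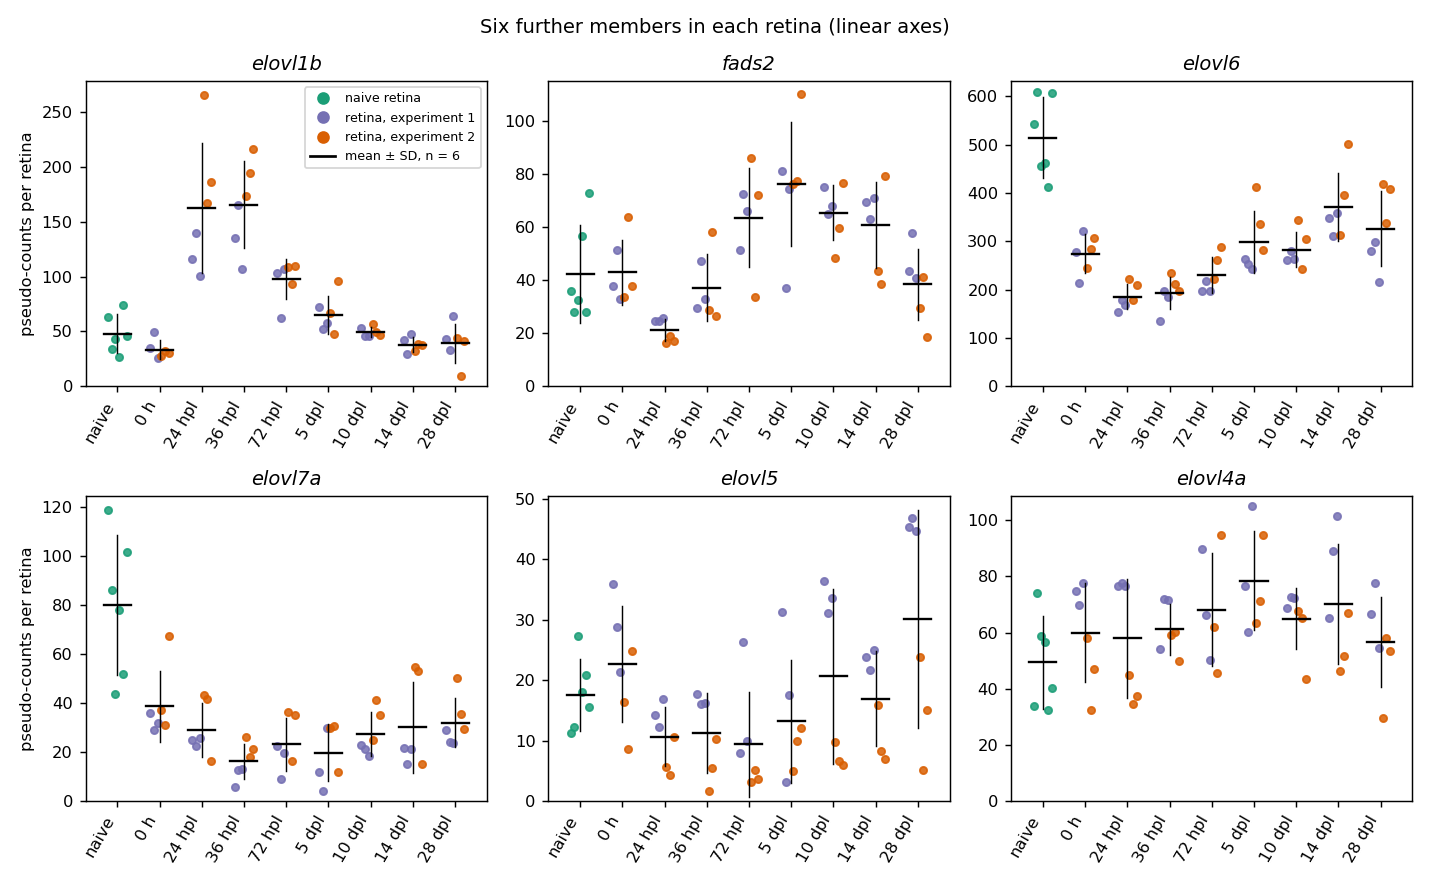
Pseudo-counts (linear axes) of elovl1b, fads2, elovl6, elovl7a, elovl5 and elovl4a in each retina, coloured by experiment, by group in time order, with the mean and SD of 6 retinas as lines. elovl1b peaked at 24 and 36 hpl, fads2 was lowest at 24 hpl, and elovl6 and elovl7a were highest in naive retinas.

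Dark-adapted and regenerated retinas were also compared with naive ones, on log2(pseudo-count + 1) with limma. The naive libraries form a set of their own, so the treatment and the library set cannot be told apart, and 53.5% of 11700 genes were called between 0 h and naive (26.5% higher and 26.9% lower) and 37.4% between 28 dpl and naive (19.7% higher and 17.6% lower). Pseudo-count totals stood apart as well, with 2497761 to 2707270 in naive libraries, above the 1513697 to 2443195 of all others. Medians over all genes were near 0 (0.017 at 0 h and 0.046 at 28 dpl, log2), and after rescaling with TMM every call of a member was unchanged. With medians already near 0, this rescaling could move the values little, and it does not separate the treatment from the library set. Of the 10 members, 2 were higher and 3 lower in each comparison. The higher ones (elovl1a in both, elovl8b at 0 h and elovl2 at 28 dpl) needed 0 h or 28 dpl retinas to pass the filter, as given below. Their count is thus not independent of the filter and is not to be read against the shares over all genes. elovl4b was lower in both comparisons, at -0.48 ± 0.15 (SE; adjusted p = 0.0092) for 0 h and -0.73 ± 0.15 (SE; adjusted p = 0.000598) for 28 dpl, and at 28 dpl the groups did not overlap. The marker sums that follow were not divided by the pseudo-count totals, which were highest in naive libraries. A higher naive sum therefore need not be a larger share of the library. Summed rod markers were 87061 to 105287 at 28 dpl and 66147 to 113091 at 0 h, against 135053 to 159608 in naive retinas. Cone sums were higher in naive retinas too (157468 to 195564 against 131135 to 155191 at 28 dpl). So were Müller glia sums (10537 to 13200 against 7552 to 9403). Amacrine, ganglion, bipolar and horizontal markers were 9788 to 11839 in naive retinas and 6456 to 9344 at 0 h. At 28 dpl they were 6910 to 9886, which overlapped with naive retinas. Microglia markers overlapped (241 to 561 in naive retinas, 406 to 521 at 0 h). Retinal pigment epithelium markers had a median of 15825 in naive retinas (4424 to 19609), against 5955 at 0 h and 8575 at 28 dpl. Their ranges overlapped (4254 to 9224 at 0 h and 7156 to 12084 at 28 dpl). Red blood cell markers had medians of 990 in naive retinas, 172 at 0 h and 464 at 28 dpl. The part of these lists was not tested. elovl6 held 216, 318 and 418 at 28 dpl and 213, 281 and 320.4 at 0 h, against 412, 502 and 608 in naive retinas (lowest, median and highest), differences of -0.68 ± 0.15 (SE; adjusted p = 0.00172) and -0.90 ± 0.15 (SE; adjusted p = 4.19e-05). elovl7a held 23.8, 29.1 and 50.4 at 28 dpl and 28.8, 33.9 and 67.4 at 0 h, against 43.7, 82.1 and 119 in naive retinas, differences of -1.26 ± 0.26 (SE; adjusted p = 0.000803) and -1.01 ± 0.26 (SE; adjusted p = 0.00267). In experiment 2 alone, the calls at 28 dpl of elovl6 and elovl7a and those at 0 h of elovl4b and elovl7a were lost (adjusted p = 0.0888, 0.0511, 0.237 and 0.0595 in that order).

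The members that were higher than in naive retinas were all thinly counted. elovl1a held 1.99, 7.98 and 14.9 at 28 dpl and 2.59, 7.91 and 13.7 at 0 h, against 0.00988, 0.555 and 3.40 in naive retinas, and its log2 differences were 2.14 ± 0.55 (SE; adjusted p = 0.00422) and 2.11 ± 0.55 (SE; adjusted p = 0.00262). It did not pass the filter on low values with either experiment alone or with the 12 libraries compared alone, so these calls have no value there, and the same held for elovl2 at 28 dpl in experiment 2 alone. No naive retina held 5 pseudo-counts of elovl1a, so it passed the filter only through 0 h and 28 dpl retinas. Its calls are therefore not independent of the filter. Outside the set, elovl6l and elovl7b were at 0 in all 6 naive retinas. elovl2 was called higher at 28 dpl alone, by 1.69 ± 0.60 (SE; adjusted p = 0.0287), with 1.61, 10.5 and 20.3 pseudo-counts at 28 dpl, against 0.107, 2.65 and 8.16 in naive retinas, and at 0 h it lay at 1.33 ± 0.60 (SE; adjusted p = 0.0618), which was called in experiment 1 alone (log2 2.15, adjusted p = 0.00694) and without 0 h replicate 5 (adjusted p = 0.0489). elovl8b was higher at 0 h by 1.38 ± 0.55 (SE; adjusted p = 0.037) and lay at 0.69 ± 0.55 (SE; adjusted p = 0.335) at 28 dpl. The 0 h call of elovl8b was lost in experiment 2 alone and when only the 12 libraries compared were fitted (adjusted p = 0.237 and 0.0555). Fewer than 6 naive retinas held 5 pseudo-counts of elovl2 or elovl8b (naive medians 2.65 and 3.39). Both genes therefore needed 0 h or 28 dpl retinas to pass the filter. Their calls are not independent of the filter either. fads2, elovl1b, elovl4a and elovl5 were called in neither comparison of the 18 libraries. In experiment 1 alone, elovl5 was called higher at 28 dpl (log2 1.39, adjusted p = 0.00142), beside 0.49 over both experiments and -0.40 in experiment 2. elovl4a was called higher at 0 h in experiment 1 alone (log2 0.64, adjusted p = 0.0386), beside 0.28 over both and -0.080 in experiment 2. For fads2 the difference at 28 dpl was -0.12, with a 95% interval of -0.67 to 0.43 (normal approximation from the SE).

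**Figure D4:**
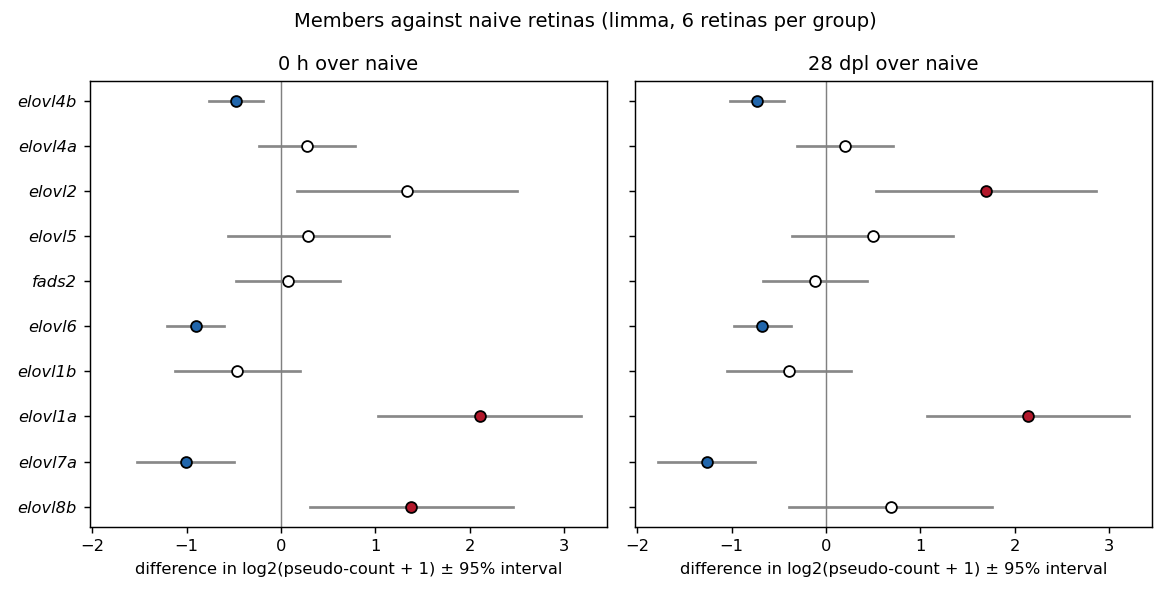
Difference in log2(pseudo-count + 1) of each member (x axis, limma, 6 retinas per group) for 0 h over naive (left) and 28 dpl over naive (right). Lines are 95% intervals by the normal approximation from the SE. Red points were higher, blue points lower and open points not called. elovl6 lay at -0.90 and -0.68, and elovl7a at -1.01 and -1.26.

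Ordered by mean pseudo-counts, elovl4b ran naive, 0 h, 14 dpl, 28 dpl, 10 dpl, 5 dpl, 24 hpl, 36 hpl and 72 hpl, high to low. elovl1b ran nearly the other way round, with 36 hpl and 24 hpl first and 0 h last, and fads2 ran with 5 dpl first and 24 hpl last. Of the 80 neighbour pairs of the 10 members in these orders, 3 had groups that did not overlap: 10 dpl over 5 dpl and 5 dpl over 24 hpl for elovl4b, and 36 hpl over 24 hpl for fads2. The other neighbours overlapped. Two-sided exact permutation tests between neighbours (924 relabellings, smallest p possible 0.00216) could not pass after adjustment over 80 pairs with only 3 at that p, and the order came from the same means, so nothing is read from them.

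Among elongases outside the set, elovl8a was tested and fell with elovl4b. Its retinas held 0 to 3.04 (median 0.604) pseudo-counts at 36 hpl, against 6.22 to 38.1 (median 14.5) at 0 h, with no overlap. Its log2 fold change was -3.06 (adjusted p = 1.63e-06) at 24 hpl, -4.08 (adjusted p = 9.72e-09) at 36 hpl and -3.26 (adjusted p = 4.68e-07) at 72 hpl, and it had risen by 3.52 (adjusted p = 5.04e-07) at 5 dpl over 72 hpl. elovl6l and elovl7b had too few reads to be tested. Of the partners of the elongation cycle, 1 of 6 were higher and 3 lower at 36 hpl (median -0.54): the dehydratase hacd2 at -1.0 (adjusted p = 5.42e-12), the ketoacyl reductase hsd17b12a at -1.0 (adjusted p = 1.01e-07) and the dehydratase hacd3 at 0.68 (adjusted p = 0.0137). At 24 hpl, 0 of 6 were higher and 3 lower, among them the enoyl reductase tecrb at -0.85 (adjusted p = 0.000189). At 28 dpl, 2 of 6 were higher and 0 lower. The shares over all genes were 19.0% (up) and 17.7% (down) at 24 hpl, 23.6% and 23.4% at 36 hpl, and 4.72% and 3.36% at 28 dpl.

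In the list of other desaturases and their electron carriers, 3 of 8 were higher and 1 lower at 24 hpl, and 2 of 8 were higher and 0 lower at 36 hpl. The cytochrome b5 gene cyb5a led, at 2.26 (adjusted p = 1.55e-06), 3.42 (adjusted p = 1.07e-11) and 2.35 (adjusted p = 5.11e-07) at 24, 36 and 72 hpl, and the stearoyl desaturase scdb fell at 24 hpl, at -0.78 (adjusted p = 0.000928). Genes of fatty acid synthesis went both ways, and 4 of 7 were higher and 1 lower at 36 hpl: acaca, the acetyl-CoA carboxylase that makes malonyl-CoA, at -0.89 (adjusted p = 2.88e-06), the citrate carrier slc25a1a at 1.18 (adjusted p = 0.000213) and olah at 1.41 (adjusted p = 0.0049). Of the acyl-CoA synthetases, 4 of 12 were higher and 2 lower at 36 hpl, with acsl4b at 2.1 (adjusted p = 1.02e-07) and acsl3a at -1.86 (adjusted p = 2.05e-05). Of the genes of DHA uptake and phospholipid incorporation, 3 of 12 were higher and 5 lower (median -0.73), led by the acyltransferase agpat3 at -1.81 (adjusted p = 3.71e-19) and the adiponectin receptor adipor2 at -0.79 (adjusted p = 2.49e-06). Over all genes, the shares called were 19.0% (up) and 17.7% (down) at 24 hpl, and 23.6% and 23.4% at 36 hpl.

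Of the genes of mitochondrial beta-oxidation, 8 of 14 were higher and 1 lower at 36 hpl (median 0.70), beside 23.6% of all genes higher and 23.4% lower, with the trifunctional protein genes hadhab at 1.62 (adjusted p = 7.07e-13) and hadhb at 1.41 (adjusted p = 1.53e-08) and the electron carrier etfb at 0.70 (adjusted p = 9.04e-07). At 28 dpl, 6 of 14 were higher and 0 lower, beside 4.72% of all genes higher and 3.36% lower. Of the peroxisomal list, 1 of 12 were higher and 2 lower at 36 hpl, with decr2 at 1.05 (adjusted p = 3.17e-05). Of the list of lipid transcription factors and their regulators, 1 of 9 were higher and 7 lower at 72 hpl (median -1.28), beside 22.7% of all genes higher and 20.2% lower. Among them were the regulator insig1, which holds back SREBP processing, at -1.97 (adjusted p = 9.11e-11), the liver X receptor nr1h3 at -0.99 (adjusted p = 3.79e-09) and pparaa at -1.42 (adjusted p = 1.75e-08). Of the genes that use very long chains for sphingolipids, 2 of 9 were higher and 3 lower at 36 hpl, with the glucosylceramide synthase ugcg at -0.94 (adjusted p = 0.000549) and the ceramide synthase cers4a at -0.63 (adjusted p = 0.000844). The lists were chosen with earlier results known, and their counts are descriptions.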

How the data were processed

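The authors sequenced 3′ mRNA libraries, 1 retina each, aligned the reads with STAR, counted reads per gene with HTSeq and used edgeR, with versions not given in the sources used here. The deposited counts are raw reads per gene for 48 libraries (0 h and the 7 later groups), and the 0 h columns repeat in all 7 tables without differing. The deposited pseudo-counts, a signal adjusted by the authors for library size, with totals that still differ, cover all 54 libraries, naive ones included. Columns of the authors' comparisons (log2 fold change, log2 CPM, likelihood ratio, p-value and false discovery rate) were not used, and 12 rows of the pseudo-count table with a date in place of a name were left out. Libraries 1 to 3 and 4 to 6 of a group came from experiments 1 and 2, as the study's sample sheet lists them. Depth ran from 228611 to 4040445 reads per library, and low members such as elovl1a and elovl2 are limited by it.

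Genes were kept where 6 or more libraries held 5 or more reads each, and the counts of these 13075 were tested with edgeR 4.0.16 (R 4.3.3; TMM factors, quasi-likelihood F test, group and experiment as terms), and naive comparisons with limma 3.58.1 on log2(pseudo-count + 1) over 18 libraries and 11700 genes, both adjusted by Benjamini-Hochberg over all genes. For edgeR, the SE was taken as the absolute log2 fold change divided by the square root of the F statistic. For limma it was the difference divided by its t statistic. The code was tested on simulated data. All 10 members are named; of each pathway list, counts and up to 3 genes with the smallest adjusted p in a comparison; and, per member, the 3 genes with the highest correlation. Some genes that this rule picks are not reported here. Members, lists and tests were chosen with earlier results of these data known. Alternatives were DESeq2 1.42.0, limma on pseudo-counts, other factors, filters and pseudocounts, no experiment term, each experiment alone, a replicate block, and leaving out 5 dpl replicate 2 or 0 h replicate 5. Each library is 1 retina, so replicates are separate retinas. The edgeR p-values weigh a difference against the spread between retinas left after the group and experiment terms. That spread also holds any disagreement between the 2 experiments in a change. For the naive comparisons, the spread between retinas does not take in a difference between library sets.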

Additional observations from a re-analysis of the deposited data

Results flagged for a closer look

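Within groups of 6 retinas, 7 of the 90 member and group combinations held 1 retina set far from the rest, beside about 1 in 20 by chance. elovl4a was lowest in 10 dpl replicate 6, with 43.6 pseudo-counts, and lay between 65.2 and 72.7 in the other 5 retinas. elovl5 was highest in 72 hpl replicate 2, with 26.3 pseudo-counts, and lay between 3.14 and 9.96 in the other 5 retinas. elovl2 was highest in 72 hpl replicate 6, with 9.04 pseudo-counts, and lay between 4.85 and 6.10 in the other 5 retinas. elovl1b was lowest in 72 hpl replicate 2, with 62.3 pseudo-counts, and lay between 93.5 and 110.0 in the other 5 retinas. elovl7a was highest in 0 h replicate 6, with 67.4 pseudo-counts, and lay between 28.8 and 37.1 in the other 5 retinas. elovl8b was highest in 10 dpl replicate 4, with 16 pseudo-counts, and lay between 3.49 and 8.01 in the other 5 retinas. elovl8b was highest in 14 dpl replicate 1, with 13.3 pseudo-counts, and lay between 1.62 and 6.01 in the other 5 retinas. Those of elovl5 and elovl1b at 72 hpl came from the same retina, and the fits above include all of them. No difference between the 2 experiments in a change over 0 h passed for any of the 10 members at the 7 times (70 tests, lowest adjusted p = 0.211 for elovl2 at 72 hpl), while 148, 102 and 134 genes did at 36 hpl, 72 hpl and 5 dpl.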

How the results depend on the processing

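Of 130 member comparisons, 38 were called, and 11 of these had a value and were called under every alternative run: elovl4b at 24, 36 and 72 hpl and 5 dpl over 0 h, at 5 dpl over 72 hpl, 10 dpl over 5 dpl and 28 dpl over naive, elovl1b at 24, 36 and 72 hpl over 0 h, and elovl6 at 0 h over naive. Another 3 (elovl1a at 0 h and 28 dpl and elovl2 at 28 dpl, over naive) were called wherever they passed the filter, and gave no value with elovl1a in each experiment alone and in the fit of 12 libraries, or with elovl2 in experiment 2 alone. In the main naive fit, elovl1a passed that filter only through 0 h and 28 dpl retinas, and elovl2 could not have passed it through naive retinas alone. Over all alternatives, 53 calls were lost, 10 of them without the experiment term, 13 in experiment 1 alone and 19 in experiment 2 alone, where fewer libraries were fitted, and 13 were gained, 7 of them in 1 experiment alone; DESeq2 and the other pseudocounts lost 0. Counts of calls are given below where they moved by over 1.5 times. Without the experiment term, elovl5 at 24 and 36 hpl and elovl7a at 5 dpl over 0 h were lost too, leaving 4, 4 and 3 members called, and members called numbered 2 (72 hpl over 0 h), 0 (10 dpl over 0 h), 0 (14 dpl over 0 h), 1 (36 hpl over 24 hpl) and 1 (5 dpl over 72 hpl), and genes called numbered 763 (10 dpl over 0 h), 842 (14 dpl over 0 h), 489 (28 dpl over 0 h), 943 (36 hpl over 24 hpl) and 1086 (10 dpl over 5 dpl). In experiment 1 alone, members called numbered 3 (24 hpl over 0 h), 2 (5 dpl over 0 h), 0 (10 dpl over 0 h), 0 (14 dpl over 0 h), 0 (36 hpl over 24 hpl), 0 (72 hpl over 36 hpl) and 1 (5 dpl over 72 hpl), and genes called numbered 4033 (36 hpl over 0 h), 2070 (5 dpl over 0 h), 689 (10 dpl over 0 h), 664 (14 dpl over 0 h), 680 (28 dpl over 0 h), 810 (36 hpl over 24 hpl), 775 (72 hpl over 36 hpl), 1107 (5 dpl over 72 hpl) and 754 (10 dpl over 5 dpl). In experiment 2 alone, members called numbered 3 (36 hpl over 0 h), 3 (72 hpl over 0 h), 2 (5 dpl over 0 h), 0 (36 hpl over 24 hpl), 1 (72 hpl over 36 hpl), 1 (5 dpl over 72 hpl), 1 (0 h over naive) and 1 (28 dpl over naive), and genes called numbered 757 (10 dpl over 0 h), 920 (14 dpl over 0 h), 487 (28 dpl over 0 h), 786 (36 hpl over 24 hpl), 907 (72 hpl over 36 hpl), 834 (5 dpl over 72 hpl), 3972 (0 h over naive) and 1444 (28 dpl over naive). Without the filter on low counts, members called numbered 1 (36 hpl over 24 hpl) and 1 (5 dpl over 72 hpl). With the replicate block, members called numbered 1 (36 hpl over 24 hpl) and 1 (5 dpl over 72 hpl). In limma on pseudo-counts, members called numbered 1 (36 hpl over 24 hpl). Without 0 h replicate 5, members called numbered 0 (14 dpl over 0 h) and 1 (5 dpl over 72 hpl). With the 12 libraries compared alone, members called numbered 3 (0 h over naive). The values set against these, members then genes, were 5 and 4791 (24 hpl over 0 h), 5 and 6141 (36 hpl over 0 h), 5 and 5614 (72 hpl over 0 h), 4 and 4161 (5 dpl over 0 h), 1 and 1296 (10 dpl over 0 h), 1 and 1722 (14 dpl over 0 h), 0 and 1056 (28 dpl over 0 h), 2 and 1497 (36 hpl over 24 hpl), 2 and 1647 (72 hpl over 36 hpl), 2 and 1765 (5 dpl over 72 hpl), 1 and 1643 (10 dpl over 5 dpl), 5 and 6255 (0 h over naive) and 5 and 4370 (28 dpl over naive). At 10 dpl over 5 dpl, 987 of 1655 genes called by limma on pseudo-counts were higher, against 752 of 1643 in the edgeR fit. The replicate numbers were not taken to pair the samples: of 66 same-numbered pairs, 62 had correlated deviations from the group means above 0.1, which the shared experiment enters, while correlations of deviations from the group and experiment means ran from -0.0987 to 0.0907, 0 above 0.1, and the own number was best in 14 of 66. With the replicate block, elovl7a at 36 over 24 hpl (adjusted p = 0.0534) and elovl6 at 5 dpl over 72 hpl (adjusted p = 0.0588) were lost, and the block changed no other call of a member. The alternative without 0 h replicate 5 was chosen after seeing the data; it gained fads2 at 10 dpl (adjusted p = 0.0459) and elovl2 at 0 h over naive (adjusted p = 0.0489).

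The sign of 62 values turned round, none called in either fit; the cause was not tested. On the log2 scale, they were as follows. Without the experiment term, values were elovl2 -0.18 (5 dpl over 0 h) and elovl1a -0.044 (5 dpl over 0 h). In experiment 1 alone, values were elovl4a 0.092 (24 hpl over 0 h), -0.12 (36 hpl over 0 h), -0.085 (72 hpl over 0 h), -0.093 (10 dpl over 0 h) and -0.21 (36 hpl over 24 hpl), elovl1a 0.11 (24 hpl over 0 h), -0.15 (5 dpl over 0 h) and -1.09 (28 dpl over 0 h), elovl2 -0.46 (5 dpl over 0 h) and -0.30 (36 hpl over 24 hpl), elovl6 -0.11 (5 dpl over 0 h), -0.047 (10 dpl over 0 h), -0.060 (28 dpl over 0 h) and 0.067 (10 dpl over 5 dpl), elovl5 0.19 (10 dpl over 0 h), elovl4b 0.10 (14 dpl over 0 h), fads2 0.18 (28 dpl over 0 h) and 0.24 (28 dpl over naive), elovl7a 0.035 (5 dpl over 72 hpl) and elovl8b -0.10 (10 dpl over 5 dpl). In experiment 2 alone, values were elovl2 1.11 (72 hpl over 0 h) and -0.17 (5 dpl over 72 hpl), elovl1a 0.48 (72 hpl over 0 h), -0.54 (14 dpl over 0 h), 2.68 (36 hpl over 24 hpl) and -0.21 (5 dpl over 72 hpl), elovl8b 0.018 (72 hpl over 0 h) and 0.14 (10 dpl over 0 h), elovl5 -0.20 (28 dpl over 0 h), -0.21 (36 hpl over 24 hpl), -0.35 (10 dpl over 5 dpl), -0.13 (0 h over naive) and -0.40 (28 dpl over naive), elovl1b -0.10 (36 hpl over 24 hpl) and elovl4a -0.080 (0 h over naive) and -0.061 (28 dpl over naive). With the replicate block, values were elovl2 -0.0017 (5 dpl over 0 h) and elovl1a -0.018 (5 dpl over 0 h). In limma on pseudo-counts, values were elovl2 -0.23 (5 dpl over 0 h) and -0.043 (5 dpl over 72 hpl), elovl1a -0.10 (5 dpl over 0 h) and -0.018 (14 dpl over 0 h) and elovl5 -0.080 (36 hpl over 24 hpl). Without 0 h replicate 5, values were elovl4a -0.0063 (36 hpl over 0 h) and -0.016 (10 dpl over 0 h), fads2 0.011 (36 hpl over 0 h) and -0.045 (0 h over naive), elovl2 -0.089 (5 dpl over 0 h), elovl1a -0.16 (5 dpl over 0 h), -0.19 (14 dpl over 0 h) and -0.11 (28 dpl over 0 h) and elovl6 -0.032 (10 dpl over 0 h). With relative log expression factors, values were elovl2 -0.028 (5 dpl over 0 h), elovl1a -0.010 (5 dpl over 0 h) and -0.032 (14 dpl over 0 h) and elovl6 -0.016 (10 dpl over 0 h). In DESeq2, values were elovl2 -0.033 (5 dpl over 0 h), elovl1a -0.033 (5 dpl over 0 h) and -0.055 (14 dpl over 0 h) and elovl6 -0.016 (10 dpl over 0 h). Without 5 dpl replicate 2, which turned no sign, the same members as without 0 h replicate 5 lay at 0.051 (elovl4a, 36 hpl over 0 h), -0.20 (fads2, 36 hpl over 0 h), 0.10 (elovl2, 5 dpl over 0 h), 0.12 (elovl1a, 5 dpl over 0 h), 0.12 (elovl4a, 10 dpl over 0 h), 0.022 (elovl6, 10 dpl over 0 h), 0.0051 (elovl1a, 14 dpl over 0 h) and 0.11 (elovl1a, 28 dpl over 0 h).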

Other observations

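Relative to 0 h, the glial transcripts gfap and rlbp1a, picked by name, went opposite ways at 24 hpl. The progenitor transcript mki67, also picked by name, was higher at 36 and 72 hpl. They do not stand for the other genes of these cells. gfap, the intermediate filament of reactive Müller glia, lay at 1.82 (adjusted p = 9.47e-14) at 24 hpl and 3.54 (adjusted p = 3.05e-25) at 72 hpl, and rlbp1a, a retinoid-binding protein of these cells, at -2.53 (adjusted p = 2.69e-15) at 24 hpl. mki67, a marker of cycling cells, lay at 3.25 (adjusted p = 1.52e-25) at 36 hpl and 3.82 (adjusted p = 3.81e-28) at 72 hpl. Among members, elovl2 lay at a mean of 13.7 ± 3.35 pseudo-counts at 10 dpl, against 8.22 ± 5.23 at 0 h (SD, n = 6), and this difference was not called.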
